A study of Mus musculus with 9 samples.

Results

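The 10 genes described here encode enzymes that build triglyceride, proteins that coat the lipid droplet in which it is stored, and the lipases and lipase inhibitor that govern its breakdown. They were chosen by gene name, as all array probes whose name in the scanner files is Gpam, Lpin1, Dgat1, Dgat2, Plin2, Plin4, Pnpla2, G0s2, Lipe or Mgll. These names matched 15 probes of 39429, and 13 of them passed the filter on dim probes, so that all 10 genes were among the 21995 tested. The cells were C2C12, a mouse myoblast line that fuses into myotubes, given vehicle, 1 nM or 10 nM calcitriol (the dihydroxylated, hormonal form of vitamin D3) for 72 h, with 3 biological replicates in each group per the series' design. The labels name no genetic change or other agent, and they do not say whether myoblasts or formed myotubes received the hormone. The series title speaks of myotubes. Each sample's Cy3-labelled RNA had a 1-colour array to itself.

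Triglyceride is made from glycerol phosphate and activated fatty acids by a chain of acyltransferases with a phosphatase between them, and the diacylglycerol acyltransferases carry out the closing step. It is kept in droplets coated by perilipins. Breakdown proceeds from triglyceride to diglyceride by the lipase that Pnpla2 encodes, then to monoglyceride by hormone-sensitive lipase, the product of Lipe, and to glycerol by monoglyceride lipase, the product of Mgll. The protein of G0s2 binds and inhibits the Pnpla2 lipase. In skeletal muscle these droplets are a fuel reserve close to the mitochondria, and vitamin D acts on muscle and fat cells through the vitamin D receptor, a nuclear receptor that pairs with the retinoid X receptor on DNA.

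The probe sequences of Dgat1, G0s2 and Mgll are shown because these genes carry the largest increase and the 2 largest decreases among the 10. Each is a 60-base probe as the array design gives it, read 5′ to 3′ along the transcript. The Dgat1 probe lies on the minus strand at chr15:76333128-76333274 of the mm9 build, an interval of 147 bases for a probe of 60. The G0s2 probe lies on the minus strand at chr1:195098925-195098984 and covers the start codon, in capitals. The Mgll probe is on the plus strand at chr6:88714636-88714695 and is 1 of 3 Mgll probes that passed the filter. Exons and untranslated regions were not analysed here for any probe.
Dgat1: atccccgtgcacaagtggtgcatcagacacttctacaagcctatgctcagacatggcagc
G0s2: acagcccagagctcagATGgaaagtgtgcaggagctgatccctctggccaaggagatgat
Mgll: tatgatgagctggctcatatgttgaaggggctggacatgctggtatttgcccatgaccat

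Promoter windows in RefSeq, from 250 bases before to 50 after the start site in GRCm38.p6, were found for 8 of the 10 genes, and Dgat1 and Dgat2 are named only. The windows of Plin2, whose level was higher after treatment, and of G0s2, whose level was lower, are printed as a pair that moved in opposite directions. They were searched on both strands for the nuclear receptor half-site AGGTCA and its variants AGTTCA and GGGTCA and also GGTTCA, in capitals below, which 43.7% of 32851 promoter windows hold. The Plin2 window, chr4:86670010-86670309 on the minus strand, held a half-site on the opposite strand 218 bases before the start site and another 33 bases before it. The G0s2 window, chr1:193273139-193273438 on the minus strand, held none of these letters. Of the other 6 genes, Gpam, Lpin1, Lipe and Mgll had at least 1 window with a half-site, whereas Plin4 and Pnpla2 had none. Gpam, Lipe and Mgll have more than 1 window, so a count by gene is not comparable with the share of windows above. Paired half-sites spaced as for the vitamin D and retinoid X receptors (DR3), found in 0.0396% of windows, and as for the peroxisome proliferator-activated receptors (DR1), found in 0.222%, were in no window of these 8 genes. A match is a description of the letters and not of binding.
Plin2: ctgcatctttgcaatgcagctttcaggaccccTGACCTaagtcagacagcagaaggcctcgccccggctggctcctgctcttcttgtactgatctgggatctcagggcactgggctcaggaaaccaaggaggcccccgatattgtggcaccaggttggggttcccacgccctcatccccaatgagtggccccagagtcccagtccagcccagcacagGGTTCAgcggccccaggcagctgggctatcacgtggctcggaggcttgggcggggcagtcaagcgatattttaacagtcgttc
G0s2: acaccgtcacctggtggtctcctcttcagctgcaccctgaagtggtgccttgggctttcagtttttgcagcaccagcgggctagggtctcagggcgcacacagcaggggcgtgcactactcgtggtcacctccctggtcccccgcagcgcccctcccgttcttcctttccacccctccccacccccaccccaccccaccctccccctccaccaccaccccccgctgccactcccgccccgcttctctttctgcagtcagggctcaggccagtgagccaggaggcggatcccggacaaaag

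Levels are log2 of the processed signal relative to the 75th percentile of the same array, so 0 is the brightness of the probe at that percentile and a difference of 1 is a change of 2-fold. Levels of different probes are not compared, because brightness also depends on the probe. Differences were tested with limma across all genes, with Benjamini-Hochberg adjustment, and a gene was called at an adjusted p under 0.05. That percentile was 2826 to 3389 intensity units across the arrays, with 0 saturated spots. The array of vehicle replicate 3 stood apart, with 6124 spots marked as non-uniform against 8 to 56 on the other 8 arrays, and a median intensity of 660 against 216 to 315. Values without it are given beside several of the results below that it moved. All 8 myotube markers on the list (among them Ckm, Acta1, Myh3 and Des) passed the filter, and their summed linear level, relative to the same percentile, was 245 to 280 in vehicle, 307 to 318 at 1 nM and 316 to 323 at 10 nM. Such a sum is weighted to the brightest probes. Acta1 and Myh3 are among these and were not called at either dose, so the sum does not show a rise of each marker.

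At 1 nM, 7 of the 10 genes were called against vehicle, when 23.6% of all genes were. Of these, 5 were higher, against 11.8% of all genes, and 2 were lower, against 11.8%. At 10 nM, 7 were called when 30.1% of all genes were, 5 of them higher (15.4% of all genes) and 2 lower (14.7%). The same genes were called at both doses, namely Dgat1, Dgat2, Plin2, Plin4 and Pnpla2, which rose, and G0s2 and Mgll, which fell. Gpam, Lpin1 and Lipe were not called at either dose. With at least a 2-fold change also asked, Dgat1, Plin2, G0s2 and Mgll remained, which is 4 of 10 at 1 nM against 6.61% of all genes, and 4 of 10 at 10 nM against 9.29%. The arrays did not overlap with vehicle for 7 of the 10 genes at 1 nM, against 42.4% of all genes, and for 9 at 10 nM, against 43.8%. The median change of the 10 was 0.42 at 1 nM and 0.63 at 10 nM on the log2 scale, beside -0.09 and -0.11 over all genes. The comparisons with vehicle share the 3 vehicle arrays and are not independent of each other.

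Dgat1, which encodes an acyltransferase of the closing step in the endoplasmic reticulum, had the largest change of the 10. Its level was -0.12, 0.15 and 0.07 on the vehicle arrays, 2.87, 2.76 and 2.86 at 1 nM, and 3.52, 3.49 and 3.64 at 10 nM. The 3 groups did not overlap, and every treated array was well above every vehicle array. Dgat1 was 6.96-fold higher at 1 nM than in vehicle (95% interval 6.03 to 8.04, adjusted p = 7.58e-07). At 10 nM its log2 change was 3.52 (95% interval 3.31 to 3.73, adjusted p = 1.61e-07). Since these are bulk RNA samples, more or fewer cells of a type and more or less RNA per cell cannot be told apart, here and for the genes that follow.

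Dgat2 encodes the other diacylglycerol acyltransferase, an enzyme unrelated in sequence. Its level was -0.46, -0.78 and -0.27 in vehicle, 0.09, 0.17 and 0.27 at 1 nM, and 0.34, 0.50 and 0.44 at 10 nM. The groups did not overlap, and the vehicle arrays were the most spread. The log2 change was 0.68 at 1 nM (SE 0.13, adjusted p = 0.0079) and 0.93 at 10 nM (SE 0.13, adjusted p = 0.00129), or 1.60-fold and 1.90-fold higher than vehicle.

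The genes of the earlier steps, Gpam and Lpin1, were not called. Gpam encodes the mitochondrial acyltransferase that attaches the first fatty acid, and its level was -3.30, -3.07 and -2.60 in vehicle, -2.78, -2.90 and -2.59 at 1 nM, and -2.56, -2.45 and -2.46 at 10 nM. Vehicle replicate 3 lay among the 1 nM arrays, while all 10 nM arrays lay above all vehicle arrays. The log2 change was 0.23 at 1 nM (SE 0.17, adjusted p = 0.377) and 0.50 at 10 nM (SE 0.17, adjusted p = 0.067). With vehicle replicate 3 left out it was 0.43 (adjusted p = 0.0366) and 0.69 (adjusted p = 0.00399), which brings Gpam past the threshold at both doses. With all arrays, limma also called it at both doses under normexp correction with quantile normalization (0.65 and 0.87). The same held in the submitters' table (0.63 and 0.84). Under scaling to the array median it was called at 10 nM (1.03, adjusted p = 0.032) and not at 1 nM (0.72, adjusted p = 0.164). A dimmer probe of Gpam gave 0.29 and 0.54, both past the threshold in a fit of all probes (adjusted p = 0.0338 and 0.00166).

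Lpin1 encodes the phosphatase of the chain, which in mouse also acts as a transcriptional coactivator. Its level was -2.22, -1.89 and -2.09 in vehicle, -2.21, -2.28 and -2.12 at 1 nM, and -2.25, -2.34 and -2.30 at 10 nM. The 1 nM arrays overlapped the vehicle arrays, and the 10 nM arrays were all lower than the vehicle arrays by small margins. The log2 change was -0.14 at 1 nM (95% interval -0.36 to 0.08, adjusted p = 0.347) and -0.23 at 10 nM (-0.45 to -0.01, adjusted p = 0.112). Its sign is not settled, since it was positive under normexp correction with quantile normalization, under scaling to the array median and in the submitters' table.

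**Figure D1:**
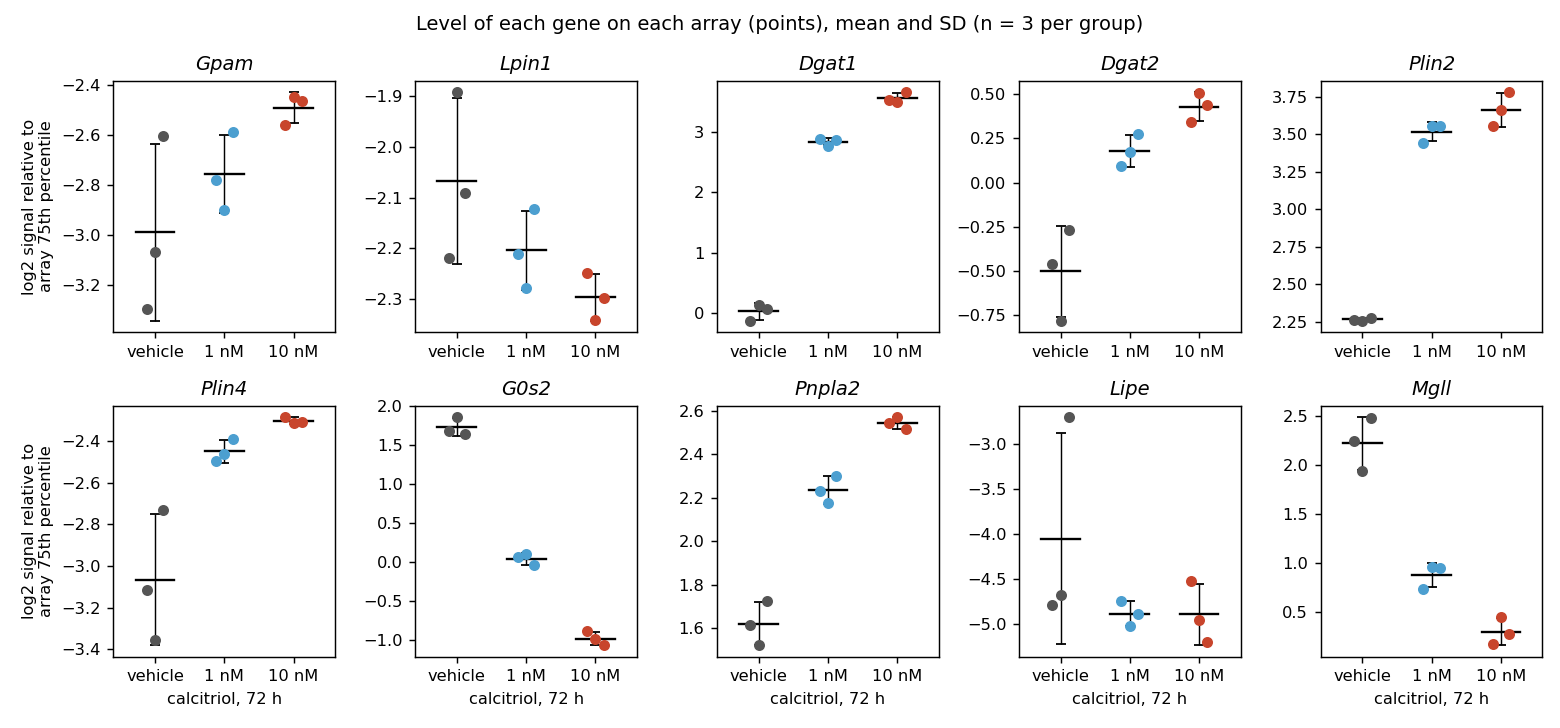
Each panel plots the level of 1 gene (log2 signal relative to the array's 75th percentile) on each of the 9 arrays, by group from vehicle to 1 nM to 10 nM, with the mean as a bar and the SD as a whisker (n = 3 per group). Each vertical axis has its own range. The groups are fully apart for Dgat1, Dgat2, Plin4, G0s2, Pnpla2 and Mgll, and the Lipe panel shows vehicle replicate 3 at -2.70 above all other arrays.

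Both perilipins on the list rose. Plin2 encodes the droplet coat protein found in most tissues, including muscle, and its level was 2.26, 2.26 and 2.27 in vehicle, 3.44, 3.55 and 3.55 at 1 nM, and 3.55, 3.66 and 3.78 at 10 nM. The vehicle arrays were closely grouped (SD 0.0085) and lay below every treated array, whereas the 2 doses met at their edges. Plin2 was 2.38-fold higher at 1 nM (2.11 to 2.69, adjusted p = 1.87e-05) and 2.64-fold higher at 10 nM (2.33 to 2.98, adjusted p = 6.67e-06) than in vehicle.

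Plin4 encodes a perilipin of fat cells and muscle. Its level was -3.12, -3.35 and -2.73 in vehicle, -2.50, -2.46 and -2.39 at 1 nM, and -2.29, -2.32 and -2.31 at 10 nM. No treated array overlapped a vehicle array, and vehicle replicate 3 was the closest of them. The log2 change was 0.62 at 1 nM (SE 0.14, adjusted p = 0.0186) and 0.76 at 10 nM (SE 0.14, adjusted p = 0.00542). The call at 1 nM was lost in 6 alternative settings, 3 of which left out 1 array, namely without vehicle replicate 1 (0.59, adjusted p = 0.0594), without 1 nM replicate 2 (0.62, adjusted p = 0.061) and without 1 nM replicate 3 (0.59, adjusted p = 0.0706).

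On the side of breakdown, the lipase gene Pnpla2 rose while the gene of its inhibitor, G0s2, fell. Pnpla2 had levels of 1.62, 1.53 and 1.72 in vehicle, 2.23, 2.17 and 2.30 at 1 nM, and 2.54, 2.57 and 2.51 at 10 nM, and the 3 groups did not overlap. The change was 1.53-fold at 1 nM (1.36 to 1.72, adjusted p = 0.000679) and 1.89-fold at 10 nM (1.68 to 2.13, adjusted p = 5.38e-05). G0s2 had levels of 1.68, 1.86 and 1.64 in vehicle, 0.06, 0.11 and -0.04 at 1 nM, and -0.89, -0.99 and -1.06 at 10 nM. Each dose lay wholly below the one before it. G0s2 was 3.21-fold lower at 1 nM than in vehicle (log2 change -1.68, SE 0.09, adjusted p = 8.28e-06) and 6.52-fold lower at 10 nM (log2 change -2.70, SE 0.09, adjusted p = 4.79e-07).

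Mgll, for the lipase of the closing step of breakdown, also fell. The brightest of its probes read 2.25, 1.94 and 2.47 in vehicle, 0.73, 0.96 and 0.95 at 1 nM, and 0.17, 0.45 and 0.28 at 10 nM, with no overlap between any groups. Mgll was 2.54-fold lower at 1 nM (log2 change -1.34, SE 0.15, adjusted p = 0.00046) and 3.78-fold lower at 10 nM (log2 change -1.92, SE 0.15, adjusted p = 4.7e-05) than in vehicle. The other kept probes gave log2 changes of -0.98 and -1.10 at 1 nM and -1.72 and -1.78 at 10 nM, each past the threshold in a fit of all probes. One of these is the Mgll probe printed above, annotated to another RefSeq transcript than the brightest probe.

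Lipe, for hormone-sensitive lipase, was not called. Its level was -4.79, -4.68 and -2.70 in vehicle, -4.75, -5.03 and -4.89 at 1 nM, and -4.53, -4.96 and -5.21 at 10 nM. The single high array was vehicle replicate 3, and the other vehicle arrays lay among the treated ones. The log2 change was -0.83 at 1 nM (95% interval -2.05 to 0.39, adjusted p = 0.305) and -0.84 at 10 nM (-2.06 to 0.38, adjusted p = 0.26). Leaving that array out gave -0.15 (adjusted p = 0.614) and -0.16 (adjusted p = 0.551).

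**Figure D2:**
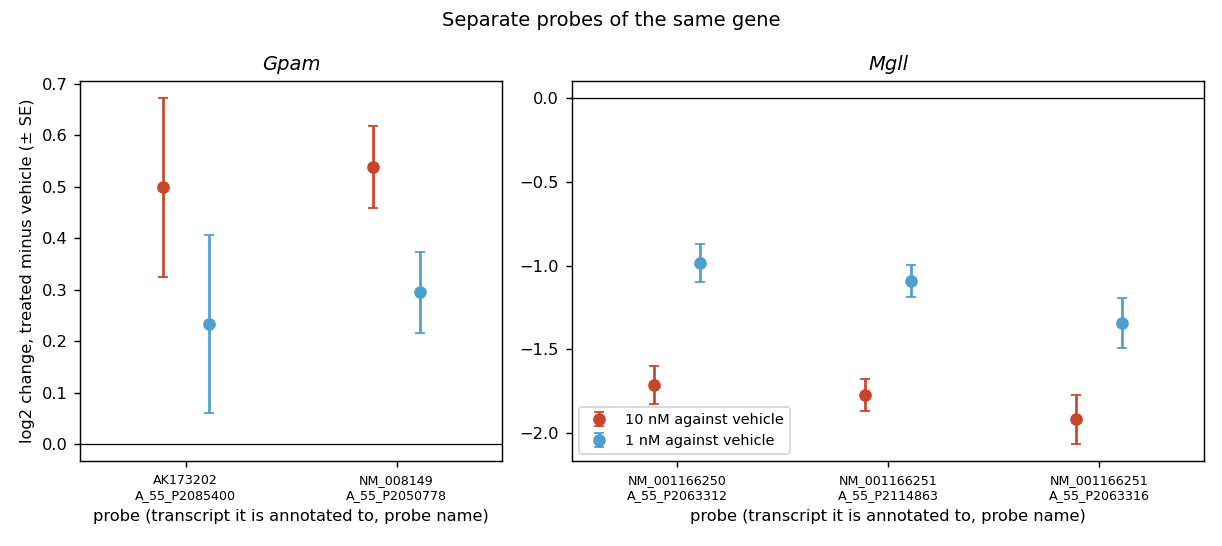
The points give the log2 change, treated minus vehicle, of each kept probe of Gpam and Mgll at 10 nM (left in each pair) and 1 nM, with the SE as a whisker and the annotated transcript and probe name below. The 2 Gpam probes lie between 0.23 and 0.54, and the 3 Mgll probes between -0.98 and -1.92, with the lower value at 10 nM for each.

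A further Mgll probe was well above background on 2 of 3 arrays in vehicle, 0 of 3 at 1 nM and 1 of 3 at 10 nM, and was not tested. A further Lpin1 probe was well above background on 1 of 3 arrays in vehicle, 1 of 3 at 1 nM and 0 of 3 at 10 nM. It too was not tested.

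Between the doses, 2 of the 10 genes were called when 3.81% of all genes were, namely Dgat1, higher at 10 nM (1.6% of all genes were called higher), and G0s2, lower at 10 nM (2.21% were called lower). Dgat1 was 1.65-fold higher at 10 nM than at 1 nM (1.43 to 1.90, adjusted p = 0.00573), and G0s2 was 2.03-fold lower (log2 change -1.02, SE 0.09, adjusted p = 0.00116). Treated arrays of the same replicate number deviated together, and with the number as a block the adjusted p was 0.0296 for Dgat1 and 0.00752 for G0s2. The doses shared slide 1 for replicate 1 and slide 2 for replicate 2, while replicate 3 lay on slides 2 and 3. The parts of slide and replicate in this were not tested. The block by replicate number left 459 genes called of all tested, against 837 without it. The next closest to the threshold were Pnpla2, at 0.31 (95% interval 0.14 to 0.48, adjusted p = 0.0737), and Mgll, at -0.58 (-0.92 to -0.23, adjusted p = 0.0968). The other kept Mgll probes gave -0.73 and -0.68 between the doses, both past the threshold in the fit of all probes (adjusted p = 0.0152 and 0.00993).

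For the remaining 6 genes the difference between the doses missed the threshold, which does not show that the doses act alike. A change of at least 2-fold between the doses was called for G0s2 alone of the 10, against 0.746% of all genes. Its 95% interval was -0.14 to 0.67 for Gpam, -0.31 to 0.13 for Lpin1, and -0.06 to 0.55 for Dgat2. It was -0.03 to 0.32 for Plin2, -0.19 to 0.48 for Plin4 and -1.23 to 1.21 for Lipe. In 7 of the 10 genes the 10 nM and 1 nM arrays did not overlap, as was so for 24% of all genes. The median difference of the 10 was 0.15, beside -0.01 over all genes.

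**Figure D3:**
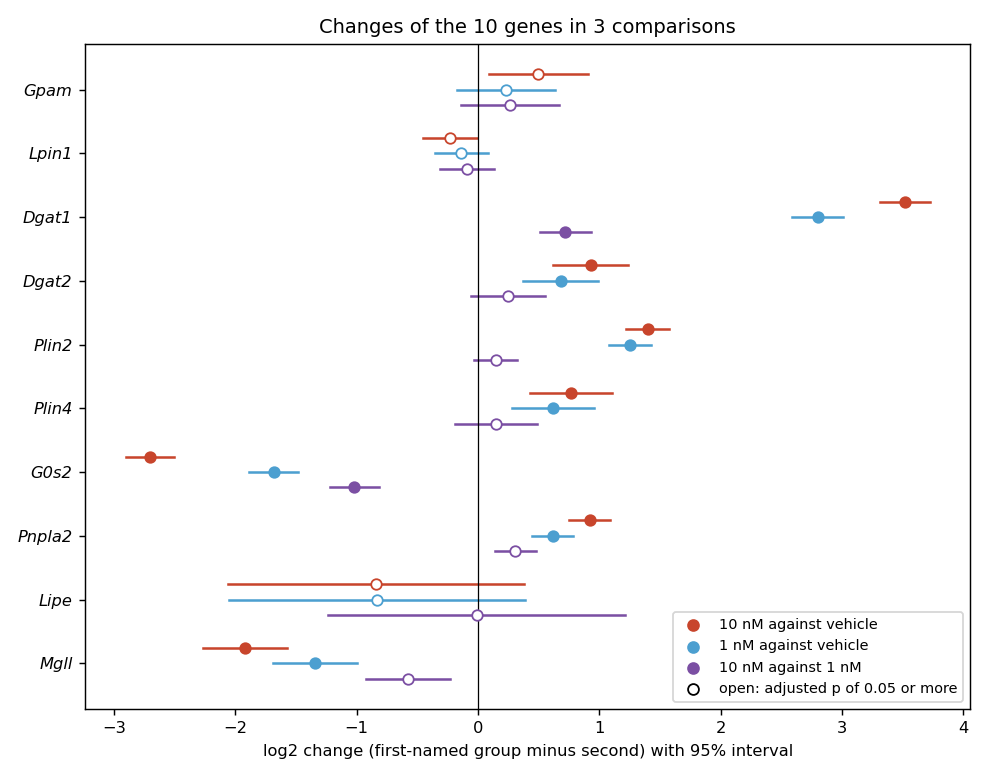
The points give the log2 change of each gene at 10 nM against vehicle, 1 nM against vehicle and 10 nM against 1 nM, with the 95% interval from limma as a line. Open points missed the threshold of 0.05 on the adjusted p. Dgat1 reaches 3.52 and G0s2 -2.70 at 10 nM, and these are the genes whose points between the doses are filled.

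The arrays lay on 3 slides. Slide 1 held vehicle replicates 1 and 2 and replicate 1 of each dose, slide 2 held vehicle replicate 3, 1 nM replicates 2 and 3 and 10 nM replicate 2, and slide 3 held 10 nM replicate 3 alone. Within slides, Dgat1 changed by 2.86 and 2.74 at 1 nM on slide 1 and slide 2 and by 3.51 and 3.41 at 10 nM. G0s2 changed by -1.71 and -1.61 at 1 nM and by -2.66 and -2.63 at 10 nM, and Mgll by -1.36 and -1.52 and by -1.92 and -2.02. Plin2 changed by 1.18 and 1.28 at 1 nM and by 1.29 and 1.38 at 10 nM. The spread within slide 1 comes from its 2 vehicle arrays and that within slide 2 from its 2 arrays at 1 nM, and the groups with 1 array there, among them vehicle replicate 3, are assumed to vary alike. The values within slides are therefore given without calls.

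Among the smaller changes, Pnpla2 was 0.66 and 0.51 at 1 nM on slide 1 and slide 2, and 0.97 and 0.85 at 10 nM. Dgat2 was 0.71 and 0.49 at 1 nM and 0.96 and 0.77 at 10 nM, and Plin4 was 0.74 and 0.30 and then 0.95 and 0.41. The smaller values of Plin4 are those on slide 2, against vehicle replicate 3. With the slide as a block, which leaves slide 3 out of the estimate, all 7 genes were called at both doses. Over all genes, 4825 were then called at 1 nM and 5611 at 10 nM. Dgat1 between the doses was 0.67 with that block (adjusted p = 0.0517), beside 0.72 without it.

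Scaling each array to its median in place of the 75th percentile moved the all-gene median to 0.38 for 1 nM, 0.40 for 10 nM and 0.03 for the doses against each other. The share of calls that were higher was then 62.1%, 67.1% and 69%, against 49.9%, 51.2% and 41.9% as scaled here. Under it all 7 called genes kept their direction at both doses. At 1 nM, G0s2 (-1.19, adjusted p = 0.0516) and Mgll (-0.85, adjusted p = 0.122) were then no longer called, and between the doses neither Dgat1 (0.76) nor G0s2 (-0.98) was. With median scaling and vehicle replicate 3 left out, the all-gene medians were 0.08 at 1 nM and 0.10 at 10 nM, and 51.3% of the calls between the doses were higher. G0s2 (-1.63, adjusted p = 3.72e-05) and Mgll (-1.12, adjusted p = 0.00299) were then called at 1 nM, and so were Dgat1 (adjusted p = 0.0354) and G0s2 (adjusted p = 0.00367) between the doses.

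The enzymes of triglyceride synthesis outside the 10 moved in both directions. Of 12 listed, 11 were tested, and 2 rose and 1 fell at 1 nM, while 5 rose and 2 fell at 10 nM. For this and the later lists, the shares over all genes were 11.8% higher and 11.8% lower at 1 nM. At 10 nM they were 15.4% higher and 14.7% lower. Their median log2 change was 0.21 and 0.30. Scaled to the array median, 1 was called higher at 1 nM and 2 at 10 nM, with none lower. Leaving out vehicle replicate 3 gave 6 risen at 10 nM. Lpin3, a phosphatase of the same family as Lpin1, had levels of 2.02, 1.99 and 2.07 in vehicle, 2.96, 3.03 and 3.02 at 1 nM, and 3.17, 3.29 and 3.28 at 10 nM, without overlap between groups. It rose by 0.98 and 1.22 on the log2 scale. Lpin2, of the same family and added after its values were seen, fell by 0.77 at 10 nM (adjusted p = 0.00242). A second kept Lpin2 probe gave -2.13 at that dose. Agpat3, an acyltransferase of the middle step, rose by 0.48 and 0.82, and Agpat5, of the same family, rose by 0.57 at 10 nM. Mogat2, for a monoacylglycerol acyltransferase best known from the intestine, fell by 0.58 at 1 nM and by 1.44 at 10 nM, and was the 1 gene on the list called between the doses (-0.86, adjusted p = 0.0181).

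The 11 other genes of the droplet coat and droplet assembly were each tested with limma by the brightest kept probe. None was called at either dose or between them, where Plin2 and Plin4 both rose against vehicle. At an unadjusted p under 0.05 limma gave 2 at 1 nM, 2 at 10 nM and 0 for the doses against each other. Without vehicle replicate 3, Cidea alone was called, higher by 0.50 at 1 nM and by 0.51 at 10 nM (adjusted p = 0.0487 and 0.0374). Their median change was -0.08 at 1 nM and -0.14 at 10 nM, but 0.33 and 0.54 when scaled to the array median, and 0.07 and 0.16 without vehicle replicate 3. The other perilipins were among them, with log2 changes of 0.27 and 0.25 for Plin3 at 1 nM and 10 nM and of 0.27 and 0.09 for Plin5. A second kept Cideb probe gave -1.91 at 1 nM and -1.93 at 10 nM, beside -0.54 and -0.50 for the probe used. Plin1, Plin5, Cidea, Cidec, Fitm1 and Bscl2 were dim, with vehicle means of -5.45 (Plin5) to -4.05 (Cidec). Their SE reached 0.78 (Plin1), so a missed call says little for them.

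Of the other lipolysis genes, 9 of 10 were tested, and 1 fell at 1 nM, while 2 rose and 2 fell at 10 nM. Over all genes, 15.4% were called higher and 14.7% lower at 10 nM. Their median change was -0.21 and -0.39, but 0.28 and 0.14 when scaled to the array median, where limma called 0 of the 9, and -0.07 and -0.08 without vehicle replicate 3. Abhd5, whose protein activates the Pnpla2 lipase, had levels of -0.06, -0.33 and -0.11 in vehicle, -0.02, -0.06 and -0.09 at 1 nM, and 0.31, 0.26 and 0.35 at 10 nM. The 1 nM arrays overlapped the vehicle arrays and the 10 nM arrays lay above both. Abhd5 changed by 0.11 at 1 nM (adjusted p = 0.394) and rose by 0.47 at 10 nM (adjusted p = 0.00373). Its other kept probes gave 0.52 and 0.20 at 1 nM and 0.79 and 0.46 at 10 nM, so the size at 1 nM depends on the probe. Pde3b, for the phosphodiesterase through which insulin restrains lipolysis in fat cells, fell by 0.92 and 0.88, Abhd12 rose by 0.36 at 10 nM, and Lipa, for lysosomal acid lipase, fell by 0.39.

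Most of the genes that bring in and activate fatty acids were called. All 14 were tested, and 10 rose and 1 fell at 1 nM, while 10 rose and 2 fell at 10 nM, with medians of 0.62 and 0.79. Over all genes, 11.8% were called higher at 1 nM and 15.4% at 10 nM, and 11.8% and 14.7% lower. Fabp3, the muscle fatty acid-binding protein, rose by 1.21 and 1.45, and Vldlr, a receptor for triglyceride-rich lipoproteins, by 1.61 and 1.96. The fatty acid transporter gene Slc27a1 rose by 1.14 and 0.99, the acyl-CoA synthetase gene Acsl3 by 0.64 and 0.60, and Fabp5 by 0.46 and 0.98. Scaled to the array median, 6 rose at 1 nM and 8 at 10 nM, and none fell.

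Within that list Lpl, for the lipase that frees fatty acids from lipoproteins, is described after its values were seen. Its level was -1.72, -2.05 and -0.42 in vehicle, 0.70, 0.70 and 0.72 at 1 nM, and 1.65, 1.50 and 1.67 at 10 nM. All treated arrays lay above the vehicle arrays, of which replicate 3 was the highest. Its log2 change was 2.10 at 1 nM (adjusted p = 0.005) and 3.00 at 10 nM (adjusted p = 0.000604). Leaving out vehicle replicate 3 gave 2.59 and 3.49. Between the doses Lpl was 0.90, which limma did not call with all arrays (adjusted p = 0.375) but did without that array (adjusted p = 0.0037). The genes that fell were also noted afterwards, and were Acsl5, by 0.84 and 1.02, and Acsl6, by 0.28 at 10 nM, for which a second probe gave -1.53. Acsl6 was also the gene of this list called between the doses (-0.44, adjusted p = 0.0232).

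Of 10 regulators of these genes, all tested, 3 rose and 2 fell at 1 nM, and 2 rose and 2 fell at 10 nM, with medians of 0.10 and 0.23. Over all genes, 11.8% were called higher and 11.8% lower at 1 nM, and 15.4% and 14.7% at 10 nM. Leaving out vehicle replicate 3 gave 4 risen and 2 fallen at 1 nM, and 5 and 2 at 10 nM. Cebpa, for a transcription factor of fat cell differentiation, had levels of -1.83, -1.45 and -2.08 in vehicle, 0.09, 0.07 and 0.03 at 1 nM, and 0.80, 0.76 and 0.79 at 10 nM, and rose by 1.85 and 2.57. It was also called between the doses (0.72, adjusted p = 0.0383). Cebpb rose by 0.87 and 1.08. Foxo1, for a forkhead factor that insulin restrains, fell by 0.53 and 0.91, and Srebf1, for a factor that drives lipogenic genes, fell by 0.73 and 0.67. Between the doses Foxo1 was lower at 10 nM than at 1 nM (-0.38, adjusted p = 0.0343). Nr1h3, for a liver X receptor, was seen afterwards to be the remaining gene that rose at 1 nM (0.70, adjusted p = 0.0337), while its other probe gave 0.05. Scaled to the array median, no gene of the list was called lower.

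**Figure D4:**
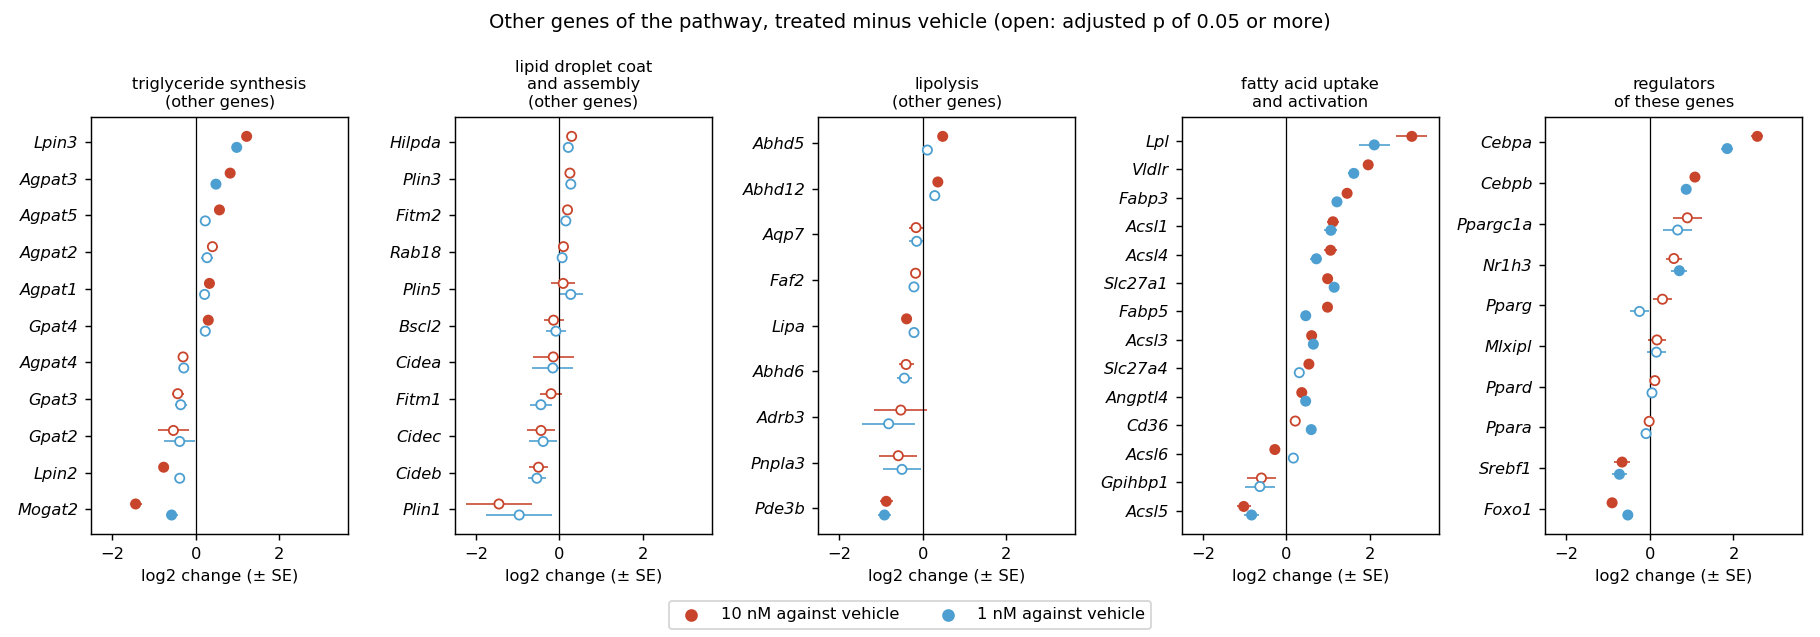
Each panel is 1 list of genes, ordered by the change at 10 nM, with the log2 change against vehicle at 10 nM and 1 nM and the SE as a whisker. Filled points passed the adjusted p of 0.05. The panel of fatty acid uptake and activation has 10 genes to the right of 0 with filled points at 10 nM, and the panel of the droplet coat has none.

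Markers of fat cells moved with these genes in part. Of 9 listed, 8 were tested. With all 9 arrays, Fabp4 and Cebpa were called higher at 1 nM, joined by Adipoq at 10 nM. The summed linear level of the 9 was 0.93 to 1.76 in vehicle, 2.81 to 2.96 at 1 nM and 6.13 to 6.54 at 10 nM, highest in vehicle on replicate 3. Adipoq, for adiponectin, read -8.93, -8.13 and -2.80 in vehicle, -2.55, -2.42 and -2.66 at 1 nM, and 0.99, 1.03 and 1.13 at 10 nM. Fabp4, the fatty acid-binding protein of fat cells, read -8.27, -8.43 and -3.82 in vehicle, 0.08, 0.19 and 0.04 at 1 nM, and 0.62, 0.83 and 0.80 at 10 nM. In vehicle both were well above background on 1 of 3 arrays. Both passed the filter on dim probes only through the treated groups. Replicates 1 and 2 read below the lowest detected level of their arrays (-7.14 and -6.27), so the size of change against vehicle and its adjusted p are uncertain. Without replicate 3, only such undetected values are left in vehicle. Without replicate 3, limma also called Adipoq at 1 nM (5.99, adjusted p = 4.63e-06, beside 4.08 and 0.0789 with it). Fabp4 at 1 nM was then 8.45, beside 6.94. Both were then called between the doses, Adipoq at 3.59 (adjusted p = 0.000339) and Fabp4 at 0.65 (adjusted p = 0.00783). Of the list, Cebpa and Pparg are also among the regulators above, and Plin1 and Cidec among the droplet genes.

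Other fat cell markers did not pass the test at either dose. The log2 changes at 1 nM and 10 nM were -0.25 and 0.30 for Pparg, the nuclear receptor of fat cell differentiation, -0.96 and -1.45 for Plin1, the main perilipin of fat cells, and -0.39 and -0.44 for Cidec. Lep gave -1.11 and -1.26 (-0.72 and -0.88 without vehicle replicate 3), and Retn -0.87 and 0.60. Plin1, Lep and Retn were dim, with vehicle means of -5.34, -5.12 and -6.24. The lowest detected level was -7.15 to -6.07 across the arrays. Changes of these genes are poorly measured (SE 0.78, 0.54 and 1.06). Cfd did not pass the filter on dim probes. Leaving out vehicle replicate 3 gave the list 3 calls at 1 nM, 4 at 10 nM and 4 for the doses against each other, all higher. Pparg was then 0.04 at 1 nM, 0.59 at 10 nM (adjusted p = 0.0011) and 0.55 between the doses (adjusted p = 0.00572), Plin1 was -0.08 and -0.56, and Retn was 0.23 and 1.70. The part of these markers in the changes of the 10 genes was not tested.

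**Figure D5:**
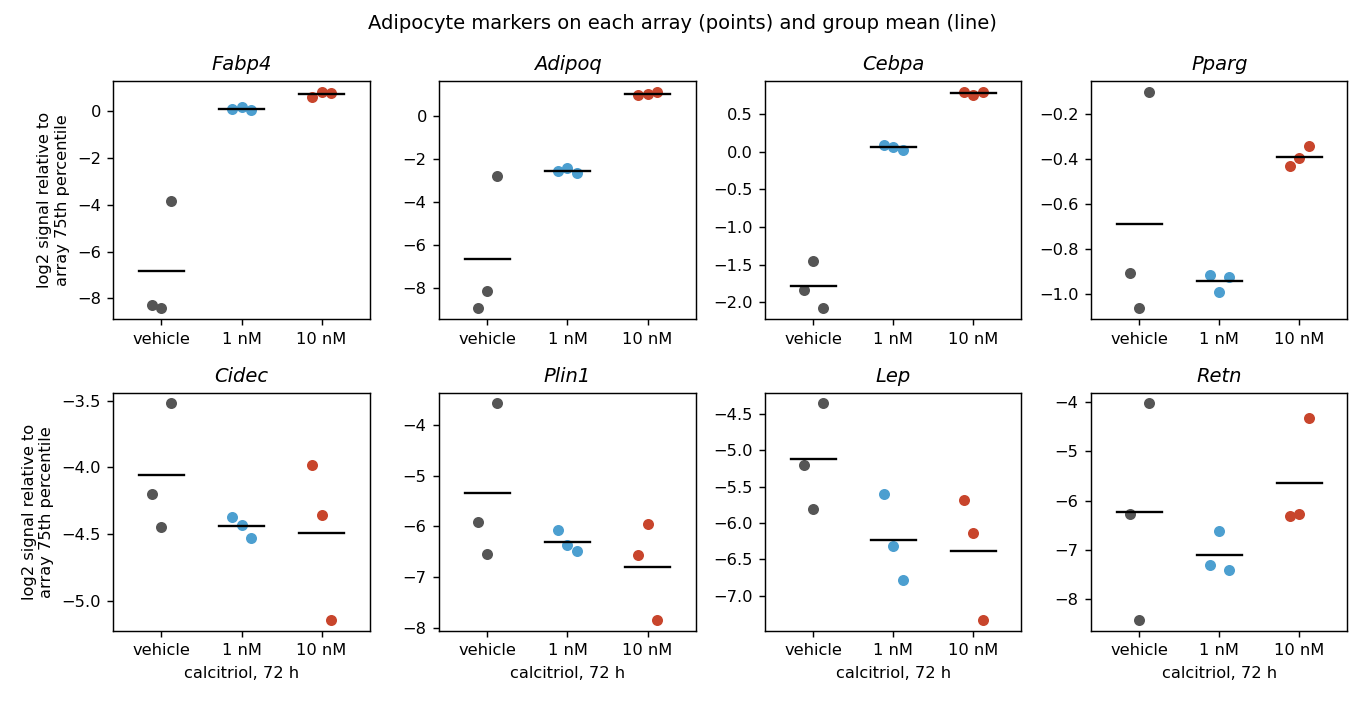
Each panel plots the level of 1 tested fat cell marker (log2 signal relative to the array's 75th percentile) on the 9 arrays by group, with a line at the group mean. Fabp4, Adipoq and Cebpa lie higher at both doses than in vehicle by the mean, while in 7 of the 8 panels the highest vehicle array is replicate 3, the exception being Cebpa.

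Markers of other cell types were tested in the same fit, in which 23.6% of all genes were called at 1 nM and 30.1% at 10 nM. Of 5 fibroblast markers, 3 rose (Dcn, Lum and Pdgfra) and 2 fell (Col1a1 and Thy1) at 1 nM, and Dcn and Pdgfra rose and the same 2 fell at 10 nM, with a summed level of 58.2 to 69.8 in vehicle, 54.0 to 59.5 at 1 nM and 50.3 to 58.9 at 10 nM. Of 4 osteoblast markers tested, Runx2 alone fell, by 0.85 at 1 nM and by 1.66 at 10 nM, and Bglap was called higher at 1 nM without vehicle replicate 3 (0.88, adjusted p = 0.00304). Of 4 macrophage markers tested with limma none was called at either dose, and 0 had an unadjusted p under 0.05. Without vehicle replicate 3, Cd68 was called higher at both doses (0.75 and 0.80). Of 3 myoblast markers, Myod1 rose by 0.66 at 1 nM and 0.89 at 10 nM, Pax7 fell by 0.57 and 0.91, and Myf5 was not called. Of the 8 myotube markers, 4 rose at 1 nM, and 5 rose and 1, Myog, fell at 10 nM. With vehicle replicate 3 left out these counts were 3 risen at 1 nM, and 3 risen and 1 fallen at 10 nM.

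By Pearson's r over the 9 arrays, which lie in 3 dose groups, the genes most like Dgat1 were Tmem86a, Bdkrb1 and Gdpd5 (r = 0.999 each), and those most like G0s2 were Col12a1, Ddah1 and Ccnf (r = 0.998, 0.997 and 0.997). Those most like Plin2 were Cmtm3, Sema5a and Myh7 (r = 0.997, 0.996 and 0.996), and those most like Mgll were Abracl, Nrg1 and Fkbp14 (r = 0.998, 0.996 and 0.996). Pnpla2 was followed by Leng1, Abcb8 and Fam118b (r = 0.997, 0.996 and 0.995), and Dgat2 by Il4ra, Atxn7l1 and Mmp11 (r = 0.994, 0.993 and 0.993). Since any genes that differ between the groups share this pattern, the values are descriptions.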

How the data were processed

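Cy3-labelled total RNA of 9 C2C12 samples was measured on 1-colour arrays of 44397 spots. There were 3 samples in each group. Per the file headers, the deposited scanner files give linear intensity for signal, mean and background of each spot, beside 0 or 1 marks of spot quality. The submitters' processing notes name version 11.5.1.1 of Agilent Feature Extraction. A deposited table of log2 values for 30094 probes matched a normexp correction (offset 50) with quantile normalization done here, at a correlation of 0.9999, and had column medians of 9.65 to 9.73. It served as an alternative setting.

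From 43020 non-control spots, less those marked non-uniform, log2 processed signal was averaged per probe and expressed relative to the 75th percentile of its array. A probe had to be well above background on every array of some group (28342 probes, 71.9%), and the brightest such probe by mean stood for its gene. Accessions named 21036 of these probes and symbols 2168 through a RefSeq gene table, and 5138 stayed as the files name them. The files' probe coordinates refer to mm9.

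The groups entered a single limma 3.58.1 model (R 4.3.3; lmFit, then eBayes) with no block, and p-values were adjusted over 21995 genes. The steps were run on simulated data with independent noise. That simulation had no slide effect and no array like vehicle replicate 3, so it does not bear on either. The deviations of 1 nM and 10 nM arrays with the same replicate number from their group means correlated at 0.484, 0.329 and 0.144 over all genes. The labels give these numbers without stating pairs. They served as a block in an alternative setting and not in the main model. Against vehicle the correlations were -0.420 to 0.053, and no pairing was taken. No 2 arrays were closer than an SD of 0.251 or shared values, and each was counted as 1 sample. Besides the 10 genes, up to 4 called genes of a list were named per comparison, smallest p first. The members and lists were chosen with earlier results of these data known. Alternatives changed the background correction, the scaling, the source table, the probe filter, the probe chosen, the groups in the model and the spread model. They also used slide or replicate blocks, omitted each array in turn and tightened the thresholds. Median scaling without vehicle replicate 3, and list counts without it, were added after that array was seen. The number of arrays limits the precision.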

Additional observations from a re-analysis of the deposited data

How the results depend on the processing

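Of 660 values of the 10 genes under the alternatives, 601 kept direction and call, 21 gained a call, 18 lost it and 20 changed sign. Many of these values could not change direction, because the log2 change was the same as in the main fit by construction. This holds without the filter on dim probes, with every kept probe or only the 2 groups fitted, and with trend and robust spread. It also holds with the replicate block and where the array left out was in neither group compared. The tally is therefore not a measure of stability. The sign changes were in genes that were not called. Lpin1 was 0.24, 0.35 and 0.23 at 1 nM, and 0.11, 0.30 and 0.10 at 10 nM, under normexp with quantile normalization, median scaling and the submitters' table. Lipe at 10 nM was 0.0097 under normexp with quantile normalization, 0.012 in the submitters' table and 0.21 within slide 1. Between the doses Lipe was 0.081 under normexp with quantile normalization, 0.028 under median scaling and 0.077 in the submitters' table, 0.24 with slides blocked, 0.22 on slide 1, 0.0011 on slide 2, 0.028 under median scaling without vehicle replicate 3, and -0.20 to 0.14 with each array left out. Gpam at 1 nM was -0.14 within slide 2. With the replicate number as a block, Gpam at 10 nM was called (0.50, adjusted p = 0.0481), and the count of all genes called between the doses was 459, while no other call on the 10 genes changed. Called genes of the 10 numbered 4 at 1 nM within slide 1, where 1 array stands for each dose, and, where at least a 2-fold change was asked, 4 for 1 nM, 4 for 10 nM and 1 for the doses compared. Between the doses they numbered 0 under median scaling and within either slide, 1 with slides blocked, and 4 with only the 2 groups fitted, with trend and robust spread, or without vehicle replicate 3, where Pnpla2 and Mgll are added. With each array left out they ranged from 6 to 8 for 1 nM, 7 to 8 for 10 nM and 2 to 4 for the doses compared. Counts over all genes were 1513 and 2530 at 1 nM and 10 nM under median scaling, 1584 and 2574 within slide 1, 10449 and 10019 within slide 2 with its 1 vehicle array, 3092 and 4339 at an adjusted p under 0.01, and 1453 and 2043 at 2-fold. Between the doses, 837 became 515 under normexp with quantile normalization, 58 under median scaling, 422 in the submitters' table, 535 without the filter on dim probes, 1351 with only the 2 groups, 355 with slides blocked, 5 on slide 1, 0 on slide 2, 370 at an adjusted p under 0.01 and 164 at 2-fold. With each array left out it ranged from 366 to 1267, the highest without vehicle replicate 3, and was 366 to 467 without any 1 of the 6 treated arrays. The causes of these shifts were not tested. Probes not well above background in any whole group, 1 each of Mgll and Lpin1, could not be tested.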
